A study of Mus musculus with 12 samples.

Results

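The cytosolic ribosomal protein genes were followed through 12 RNA-Seq libraries of cells sorted from injured and uninjured mouse spinal cord. Members were all genes in the count table whose symbol begins with Rpl or Rps and a digit, or with Rplp and a digit, leaving out pseudogenes (-ps) and the S6 kinases (Rps6k). This gave 82 of 16389 genes, of which 42 encode proteins of the large (60S) subunit, 3 the proteins of its P-stalk and 30 proteins of the small (40S) subunit. A further 6 are paralogs of such genes (Rpl10l, Rpl22l1, Rpl36al, Rpl7l1, Rps27l and Rps4y2), and Rps19bp1, which encodes a protein that binds Rps19, enters by its name only. All mice were adult (12 weeks old when injured) males that carry eGFP under the Aldh1l1 promoter, which is used to mark astrocytes, on a Swiss Webster background. Injured mice had a lateral hemisection (HS) or a full transection (FT) at thoracic level 9, the cord was dissociated over 1 cm around the lesion, and living eGFP+ cells were sorted. The groups were HS 1 week (3 libraries), HS 2 weeks (2), FT 1 week (1), FT 2 weeks (3) and non-injured controls (NI, 3), for which the same thoracic segment was taken. The study's methods state 3 biological replicates per group, more than the labels give for HS 2 weeks and FT 1 week. In the data used here FT 1 week had no replicate, so each of its tests assumes that this library varies like those of the other groups. More animals than libraries were used in every group, and which animals went into which library is not given in the labels. The p-values therefore measure the spread between these libraries.

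Ribosomal proteins clothe the ribosomal RNA, and each is built into the ribosome in a single copy except the acidic P-stalk proteins, which sit on the large subunit as dimers and help recruit the translation factors. Their genes are expressed in nearly every cell, and their mRNAs typically begin with a run of pyrimidines, the 5′ terminal oligopyrimidine (TOP) tract, through which the mTOR pathway and Larp1 control their translation. Polyadenylated RNA, as sequenced here, reports the amount of these mRNAs and not how much of them is translated. A lower level in sorted cells can come from fewer cells of one type or from less RNA per cell, and these cannot be told apart in bulk libraries.

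The libraries held 8270643 to 15562378 reads on genes. The authors scaled each library's read counts by a single factor, and the resulting values are called normalized counts here. In the sorted cells 15 of 15 astrocyte markers were detected in all 12 libraries, with a summed level of 2538 to 14044 normalized counts. The 12 oligodendrocyte markers summed to more than the astrocyte markers in every library (56755 to 117456). The 16 microglia markers, all above 0 in every library, summed to 5042, 1313 and 18128 in HS 1 week, 17824 and 2786 in HS 2 weeks, 15229 in the FT 1 week library, 2881, 2088 and 3711 in FT 2 weeks and 1106, 7704 and 10129.7 in NI. The libraries thus carried markers of cell types other than astrocytes, in sums that differed between libraries of one group.

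The start of the transcript carries the TOP tract, so the annotated starts were read from the RefSeq promoter table (GRCm38.p6), in which 61 of the 82 genes had 72 windows. A run of at least 6 C or T bases that holds the first base of the transcript or the base before it was found at 20 of 61 genes (32.79%), against 13.04% of all genes in the count table that have a window and 12.52% of all genes in the promoter table. The letters CTTTC, searched on the gene's own strand between 20 bases before and 30 bases after the start and overlapping with such runs by their make-up, were present in 31.15% of the genes, against 6.731% of genes in the count table. CGGAAG, the core letters bound by ETS-family factors, was searched on either strand between 250 bases before and 50 after the start. It was present in 67.21% of the genes, against 29.94% of genes in the count table. A match describes the annotated window, and an annotated start can lie some bases from the start used in these cells. The 9 windows below belong to genes on which the results turn. Each runs 5′ to 3′ from 10 bases before the annotated start through the first 20 bases of the transcript, and capitals mark the C and T run where there is one.
Rpl35: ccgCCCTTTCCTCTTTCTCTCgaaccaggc
Rps24: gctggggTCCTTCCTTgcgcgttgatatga
Rplp2: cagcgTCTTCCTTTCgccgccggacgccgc
Rps10: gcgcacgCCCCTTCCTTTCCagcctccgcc
Rps27: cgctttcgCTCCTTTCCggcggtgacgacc
Rpl34: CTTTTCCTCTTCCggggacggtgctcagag
Rpl37: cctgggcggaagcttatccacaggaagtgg
Rps2: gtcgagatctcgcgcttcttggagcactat
Rpl13: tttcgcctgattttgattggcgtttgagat

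The first 6 of these windows hold a run, and the last 3 do not. Rpl35 (chr2:39005112-39005141, minus strand) and Rps24 (chr14:24490668-24490697, plus strand) followed the other members closely across libraries, and Rplp2 (chr7:141447641-141447670, plus strand) encodes one of the P-stalk proteins. Rps10 (chr17:27635225-27635254, minus strand) had the lowest fold change 2 weeks after FT. Rps27 (chr3:90213629-90213658, minus strand) and Rpl34 (second of its annotated starts, chr3:130730318-130730347, minus strand) were among the genes with the fewest counts although both windows carry a long pyrimidine run. Rpl37 (chr15:5116603-5116632, plus strand) had the highest fold change 1 week after FT, while Rps2 (chr17:24720053-24720082, plus strand) and Rpl13 (chr8:123102340-123102369, plus strand) varied most between libraries of one group. Among these windows, runs were thus found at genes that followed the set across libraries and at Rps27 and Rpl34, which did not. The few counts of Rps27 and Rpl34 limit how far they could follow it.

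Levels were compared between genes per kilobase of the median annotated coding transcript (GENCODE annotation of GRCm38), averaged over the 12 libraries. Rpl41, which encodes the smallest ribosomal protein, stood highest at 1416 normalized counts per kb. Also high were Rpl3, whose protein reaches toward the peptidyl transferase center, with 1089, Rps29 with 1065 and Rps14 with 909. In most genes the spread over libraries was wider than the gap to the neighbors in this order. Rpl41 ranged between 897 and 2109.6 per kb, and Rps29 between 695 and 1743. Of the 82 genes, 69 averaged at least 100 normalized counts and 5 fewer than 10.

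**Figure D1:**
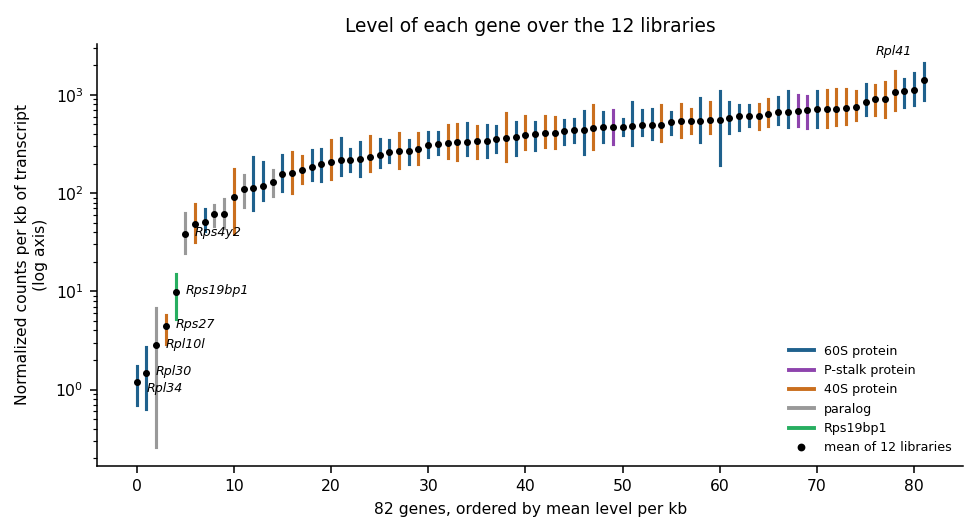
Each of the 82 genes is placed in order of its mean level, in normalized counts per kb of transcript on a log axis. Points are means of 12 libraries and bars run between the lowest and the highest library, colored by class. Of the 6 genes named at the lower left, Rps4y2 at 38.7 per kb lies at the low end of a continuous range up to Rpl41 at 1416 per kb. The others named there lie apart, at 9.83 per kb (Rps19bp1) and lower.

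A few core genes had almost no counts. Rpl34 stood at 1.19 per kb, Rpl30 at 1.47 and Rps27 at 4.42, although each encodes a core protein of the ribosome. Rpl34 had 0.727, 0.694 and 0.734 normalized counts in HS 1 week, 0.712 and 0.513 in HS 2 weeks, 0.940 in the FT 1 week library, 1.10, 0.583 and 0.593 in FT 2 weeks, and 1.02, 0.830 and 0.432 in NI. Rpl30 had 0.364, 0.694 and 0.856 normalized counts in HS 1 week, 0.498 and 0.586 in HS 2 weeks, 1.07 in the FT 1 week library, 1.53, 1.28 and 0.667 in FT 2 weeks, and 1.10, 0.702 and 0.720 in NI. In Rpl34 every injured group with replicates overlapped NI, while in Rpl30 both HS 2 weeks libraries lay below every NI library. These values rest on 5 to 15 reads per library in Rpl34 and on 3 to 21 in Rpl30. Ribosomal protein genes have many processed copies in the mouse genome, and reads that fit several places are lost or shared depending on how reads were counted. The share of each gene's 50-base stretches found in no annotated transcript of another gene was 89.03% for Rpl34, 27.17% for Rpl30 and 53.82% for Rps27. Stretches were pooled over all annotated coding transcripts of a gene. Rpl34 had 1987 stretches, against a median coding transcript of 624 bases, so longer transcripts weigh in its share. The share of the transcript that is mainly expressed can therefore differ. Among the 75 core genes this share did not order the levels: the 26 genes with 10% to under 50% unique stretches had a median of 409 per kb, the 42 with 50% to under 90% a median of 424, and the 6 with at least 90% a median of 298. The remaining core gene, Rpl35, had 4.905% unique stretches and stood at 548 per kb. The levels of members with few unique stretches are uncertain for this reason, and the part of read assignment in the low values was not tested.

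The genes together took 1.86, 1.83 and 2.43 percent of the reads in HS 1 week, 3.09 and 2.25 percent in HS 2 weeks, 2.75 percent in the FT 1 week library, 1.75, 1.99 and 2.95 percent in FT 2 weeks and 2.29, 2.44 and 3.93 percent in NI. The 95% Wilson intervals of these shares were at most 0.022 percentage points wide and cover counting error only. The group means were 2.04 ± 0.34% in HS 1 week (SD, n = 3), 2.67 ± 0.59% in HS 2 weeks (n = 2), 2.23 ± 0.64% in FT 2 weeks (n = 3) and 2.88 ± 0.91% in NI (n = 3). Every injured group overlapped NI, and the libraries of NI alone spanned 2.285% to 3.931%. The third NI library was the highest of all 12 and held the highest value of 50 of the 82 genes. The first FT 2 weeks library was the lowest and held the lowest value of 48.

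**Figure D2:**
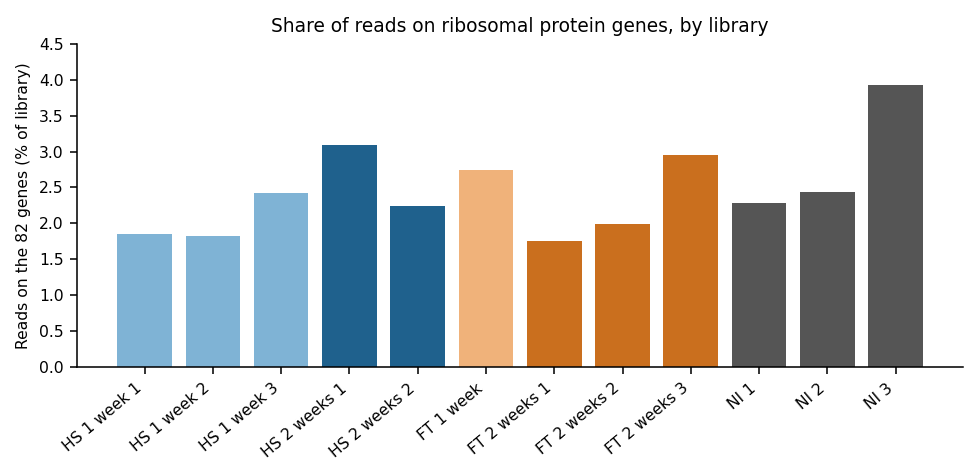
Bars give the percentage of each library's reads that fell on the 82 genes, starting at 0 and colored by group. NI 3 reached 3.931% and FT 2 weeks 1 the lowest share, 1.752%. The NI bars alone run from 2.285% to 3.931%, and every injured group overlaps NI.

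The difference between libraries ran through nearly the whole set. The mean log2 value of the members, set against its mean over the 12 libraries, was -0.26, -0.15 and -0.08 in HS 1 week, 0.40 and -0.12 in HS 2 weeks, 0.32 in the FT 1 week library, -0.38, -0.19 and 0.17 in FT 2 weeks and -0.04, -0.18 and 0.51 in NI. In NI 3 and in FT 1 week 79 of 82 genes lay above their own median, and in the first HS 2 weeks library 77 did. In the first HS 1 week library 5 and in the first FT 2 weeks library 6 did. The libraries NI 3, HS 2 weeks 1 and FT 1 week, with the highest mean log2 values, had microglia marker sums of 10129.7, 17824 and 15229 normalized counts. HS 1 week 3, with the highest microglia sum (18128), lay slightly below the mean in the ribosomal protein genes, and FT 2 weeks 3, with a sum of 3711, lay above it. NI 3 also had the highest sum of the 10 granulocyte and mast cell markers (9496), with Mcpt4 at 0 in some libraries. The part of the cell makeup in these levels was not tested.

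**Figure D3:**
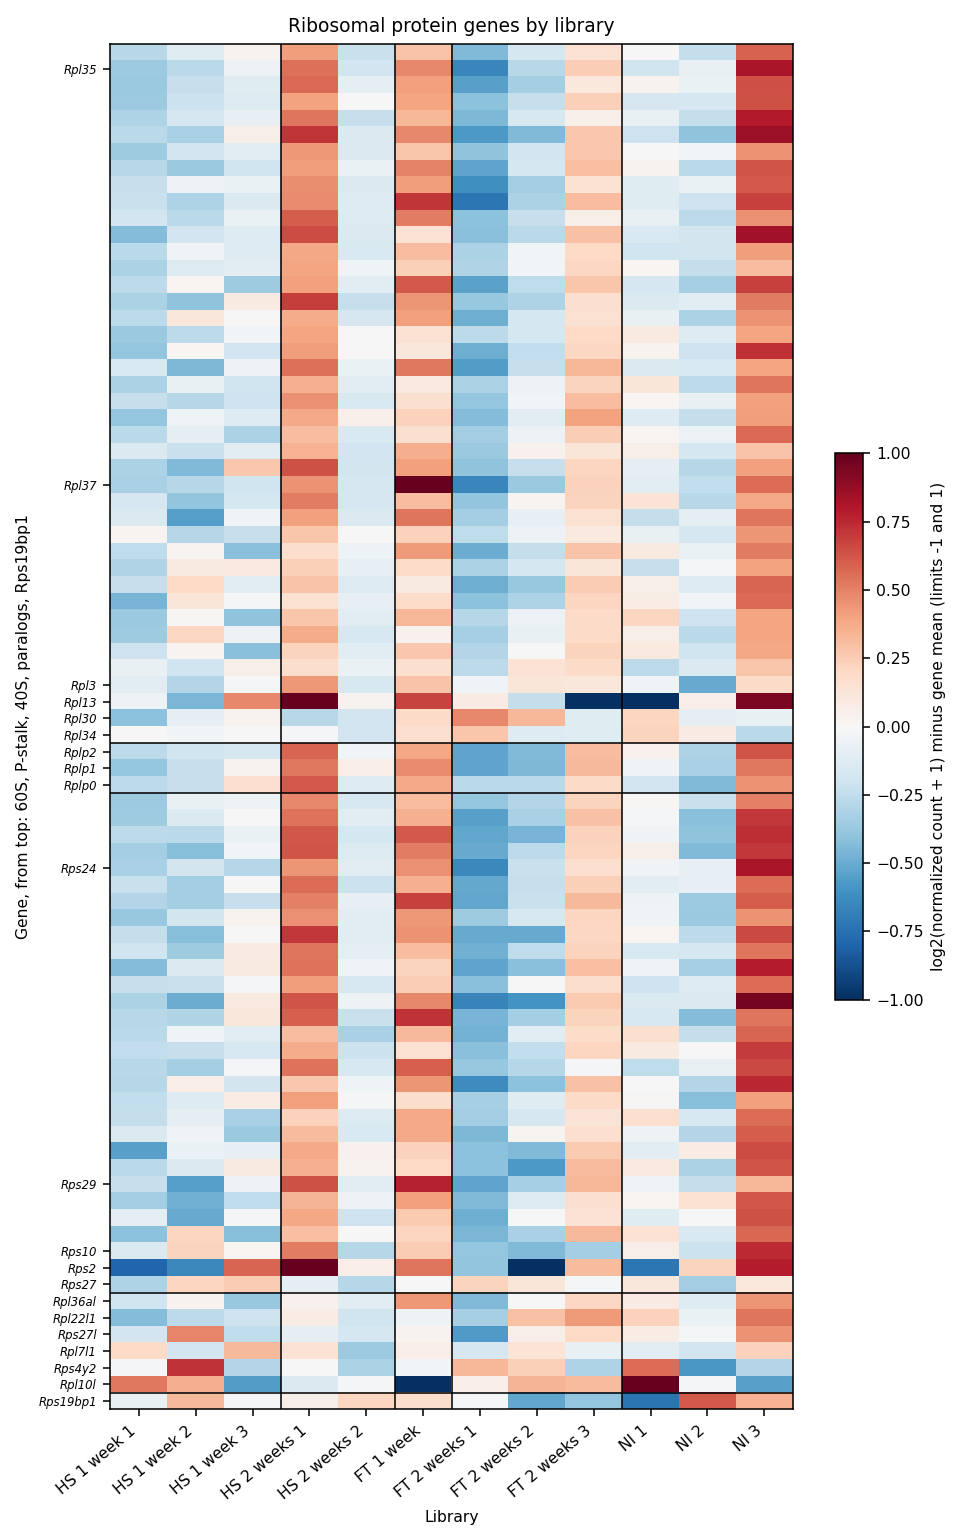
Rows are the 82 genes by class, some of them labelled, and columns the 12 libraries, and color gives log2(normalized count + 1) minus the gene's mean, with limits at -1 and 1. NI 3, HS 2 weeks 1 and FT 1 week are red in most rows and FT 2 weeks 1 is blue in most, whereas Rpl34, Rpl30, Rps27, Rpl10l and Rps4y2 follow other patterns.

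Large and small subunit genes rose and fell together, but the 40S genes moved further in every library except HS 1 week 3 and NI 1. From their means over the 12 libraries, the 40S and 60S genes deviated by 0.62 and 0.49 in NI 3. In FT 2 weeks 2 they deviated by -0.29 and -0.16. The summed level of the 60S genes was 1.36 to 1.56 times that of the 40S genes in every library, with 1.47, 1.52 and 1.44 in HS 1 week, 1.43 and 1.45 in HS 2 weeks, 1.41 in the FT 1 week library, 1.54, 1.56 and 1.42 in FT 2 weeks and 1.42, 1.48 and 1.36 in NI. Across the 12 libraries, which include all groups and share one scaling step, the median Pearson correlation between pairs of members was 0.83, and 68 of the 82 correlated at 0.8 or more with the mean of the others. Of the 9 below 0.5, Rpl34, Rpl30 and Rps27 had few counts, Rps4y2, Rpl10l, Rpl7l1 and Rps27l are paralogs, Rps19bp1 is no ribosomal protein, and Rpl13 is a core 60S gene. The 12-library correlation was 0.39 for Rpl13, 0.12 for Rps19bp1 and -0.52 for Rpl10l.

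Between libraries of one group the members varied about as much as a wider set of genes, which was not matched to them in level. The median within-group SD on the log2 scale was 0.34 for the members and 0.32 over 9280 genes that averaged 10 normalized counts or more. Rpl13 had the largest within-group SD (0.83), followed by Rps2 (0.73), whose protein lies at the mRNA entry of the small subunit, and Rpl10l (0.57). Rpl13 had 371, 280.2 and 536 normalized counts in HS 1 week, 852 and 394 in HS 2 weeks, 615 in the FT 1 week library, 406, 326 and 150.0 in FT 2 weeks, and 153, 402 and 738 in NI. The first NI library and the third FT 2 weeks library were both far below the rest, and every injured group overlapped NI. Rps2 had 47.6, 52.9 and 125 normalized counts in HS 1 week, 180.3 and 87.2 in HS 2 weeks, 121 in the FT 1 week library, 63.0, 39.6 and 104 in FT 2 weeks, and 50.1, 97.5 and 144 in NI. Here the first and second HS 1 week libraries, the second FT 2 weeks library and the first NI library were low. The 50-base stretches of Rpl13 and Rps2 were unique in 19.7% and 43.57% of cases, so reads of their copies could reach or leave these counts. The part of read assignment in their spread between libraries was not tested.

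The first question of the design was whether these mRNAs change in the sorted cells after a moderate (HS) or a severe (FT) lesion. Log2(normalized count + 1) was tested with limma in 1 model of all groups, and a gene was called at 2-fold or more with an adjusted p below 0.05 over the 16388 genes tested. No ribosomal protein gene was called 1 week after HS, where 0.0061% of all genes were, and edgeR and DESeq2 called none either. At an unadjusted p below 0.05, 2 members were lower (3.35% of all genes) and none was higher (4.31%) with limma, and edgeR put 2 members below this limit (7.4%). The fold changes pointed one way: 77 of 82 members were below 0 (53.7% of all genes) and 5 above (46.3%), with a median of -0.29 on the log2 scale, against -0.03 for all genes. Leaving out NI 3 brought this median to -0.07 and the count below 0 to 56, and leaving out NI 2 brought the median to -0.44. With every library scaled to the same total the median was -0.50, with 81 members below 0 (72.8% of all genes), and the median of all genes moved to -0.21. The members thus differed from all genes by -0.30 there and by -0.26 with the deposited scaling. The 95% interval lay within 2-fold either way for 62 of the 82 (62.2% of all genes).

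Among the lowest fold changes 1 week after HS was that of Rpl22l1, the paralog of Rpl22, with 23.5, 26.7 and 27.7 normalized counts in HS 1 week, against 38.0, 30.6 and 47.1 in NI and a log2 fold change of -0.53 ± 0.24 (SE) (limma adjusted p = 0.650). Rps24, a gene mutated in some families with Diamond-Blackfan anemia in humans, had 185, 204 and 191 normalized counts in HS 1 week, against 226, 219 and 410.5 in NI (log2 fold change -0.50 ± 0.29 (SE), limma adjusted p = 0.701). In all, 8 members had every HS 1 week library below every NI library (5.02% of all genes), and none had every one above (7.31%). These 8 included Rpl11, whose protein forms a complex with Rpl5 and 5S rRNA that binds Mdm2, Rpl21, Rpl31 and Rpl37a, named after their values were seen, besides Rpl22l1 and Rps24. The 3 highest fold changes were those of Rps4y2 (0.24 ± 0.34 (SE)), Rpl7l1 (0.14 ± 0.21 (SE)) and Rpl13 (0.10 ± 0.57 (SE)), and all 3 had groups that overlapped. The sign of Rpl13 and Rpl7l1 turned when every library was scaled to the same total (-0.11 for Rpl13 and -0.07 for Rpl7l1).

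At 2 weeks after HS no member was called by limma, edgeR or DESeq2 (0.0122% of all genes with limma), and none had an unadjusted p below 0.05 in limma (3.66% of all genes lower and 3.83% higher) or edgeR (8.14%). The median log2 fold change was 0.05 with 53 of 82 members above 0 (47.8% of all genes) and 29 below (52.2%). This direction rested on single libraries. Without the first HS 2 weeks library the median was -0.23 with 78 members below 0, without the second it was 0.33, and without NI 3 it was 0.27. Without NI 1 or NI 2 it was -0.02 or -0.10. Scaling every library to the same total gave -0.12 with 69 members below 0 (67.1% of all genes), and moved the median of all genes to -0.16 as well, so that the members lay 0.04 above all genes there and 0.07 above with the deposited scaling. The 95% interval lay within 2-fold either way for 77 of the 82 members (54.2% of all genes).

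Rpl13 had the highest fold change 2 weeks after HS (0.70 ± 0.63 (SE), limma adjusted p = 0.874), with its groups overlapping. Next were Rps2 (0.49 ± 0.56 (SE)) and Rplp0, the scaffold of the P-stalk (0.30 ± 0.33 (SE)). Rplp0 had 862 and 515 normalized counts in HS 2 weeks, against 494, 416 and 772 in NI, so both libraries of the group lay above the middle NI library and the second below the highest, and without the first of them the fold change was -0.07. The lowest were the paralogs Rps27l (-0.30 ± 0.29 (SE)), Rpl22l1 (-0.29 ± 0.27 (SE)) and Rpl10l (-0.28 ± 0.46 (SE)). Rps27l had 50.5 and 47.8 normalized counts in HS 2 weeks, against 57.0, 53.3 and 74.0 in NI. Rps27l and Rpl30 were the only 2 members with both HS 2 weeks libraries below every NI library (11.6% of all genes), and none had both above (12.9%).

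One week after FT no member was called by limma, edgeR or DESeq2, against 0.452% of all genes with limma and 0.427% with edgeR. At an unadjusted p below 0.05 in limma, 1 member was higher (4.56% of all genes) and 1 lower (6.65%), and edgeR had 2 (10.5%). The median log2 fold change was 0.21 with 71 of 82 members above 0 (48.5% of all genes) and 11 below (51.5%). Scaling to the same total gave -0.07 with 50 members below 0 (71.7% of all genes), and the median of all genes then moved to -0.27, so that the members lay 0.20 above all genes, against 0.23 with the deposited scaling. Without NI 3 the median was 0.42 and without NI 2 it was 0.08. The 95% interval lay within 2-fold either way for only 32 members (30% of all genes), since the group had 1 library.

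Rpl37, a 60S protein gene, had the highest fold change 1 week after FT, with 194 normalized counts in FT 1 week, against 81.7, 74.2 and 130.5 in NI. Its log2 fold change was 1.06 ± 0.40 (SE) (95% interval 0.19 to 1.94), with an adjusted p of 0.351 in limma. Rpl13 (0.78 ± 0.80 (SE)) overlapped NI, and Rps29 had 679.8 normalized counts in FT 1 week, against 388, 337 and 501 in NI (0.75 ± 0.41 (SE), limma adjusted p = 0.531). The FT 1 week library lay above all 3 NI libraries for 10 members (27.2% of all genes) and below them for 1 (30.1%). The members above NI included Rpl3, Rpl5, Rpl7, Rpl23, Rpl27a, Rpl35a, Rpl37, Rps23 and Rps29, and those outside the rule for named genes are given after their values were seen.

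The single member below NI was Rpl10l, the intronless paralog of Rpl10 known for its expression in mouse testis. Rpl10l had 4.12, 3.56 and 1.41 normalized counts in HS 1 week, 2.21 and 2.49 in HS 2 weeks, 0.269 in the FT 1 week library, 2.70, 3.50 and 3.41 in FT 2 weeks, and 6.91, 2.49 and 1.44 in NI. The FT 1 week value rests on 2 reads, and its ratio to the NI mean of 3.61 ± 2.91 (SD, n = 3) was 0.0743, with an exact 95% Poisson interval of 0.00900 to 0.268 that covers counting error only. The log2 fold change was -1.68 ± 0.59 (SE) with the pseudocount of 1, and the adjusted p in limma was 0.313. Rpl10 itself had 503 normalized counts in FT 1 week, against 391, 362 and 572 in NI. The next lowest fold changes in FT 1 week were those of Rpl22l1 (-0.28 ± 0.34 (SE)) and Rps27l (-0.13 ± 0.37 (SE)), both with overlapping groups.

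At 2 weeks after FT limma, edgeR and DESeq2 called no member (0.0427% of all genes with limma, 0.0244% with edgeR), limma had none at an unadjusted p below 0.05 (5.93% of all genes lower, 4.89% higher) and edgeR 1 (11.1%). The members lay mostly below NI, with 76 of 82 below 0 (51.6% of all genes) and a median of -0.25 on the log2 scale, against -0.01 for all genes. Without NI 3 the median was -0.03 with 49 members below 0, without the first FT 2 weeks library it was -0.11, without the third it was -0.43, and without NI 2 it was -0.37. With the same total in every library it was -0.39, with 78 members below 0 (64% of all genes), against -0.13 for all genes. The 95% interval lay within 2-fold either way for 64 members (61.5% of all genes). Rps10, a 40S protein gene, had 117, 113 and 121 normalized counts in FT 2 weeks, against 159.7, 132 and 258 in NI and was the only member with every FT 2 weeks library below every NI library (7.99% of all genes), while none had every one above (6.92%). Its log2 fold change was -0.58 ± 0.27 (SE) (limma adjusted p = 0.470). Rps12 (-0.56 ± 0.36 (SE)) and Rps2 (-0.47 ± 0.50 (SE)) followed. The highest were Rpl30 (0.22 ± 0.20 (SE)), Rps4y2 (0.19 ± 0.34 (SE)) and Rpl3 (0.18 ± 0.25 (SE)), whose groups overlapped. Rpl30 had few reads, and the 1 added before the log narrows changes and SE at such counts. Its edgeR log2 fold change was 0.46.

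**Figure D4:**
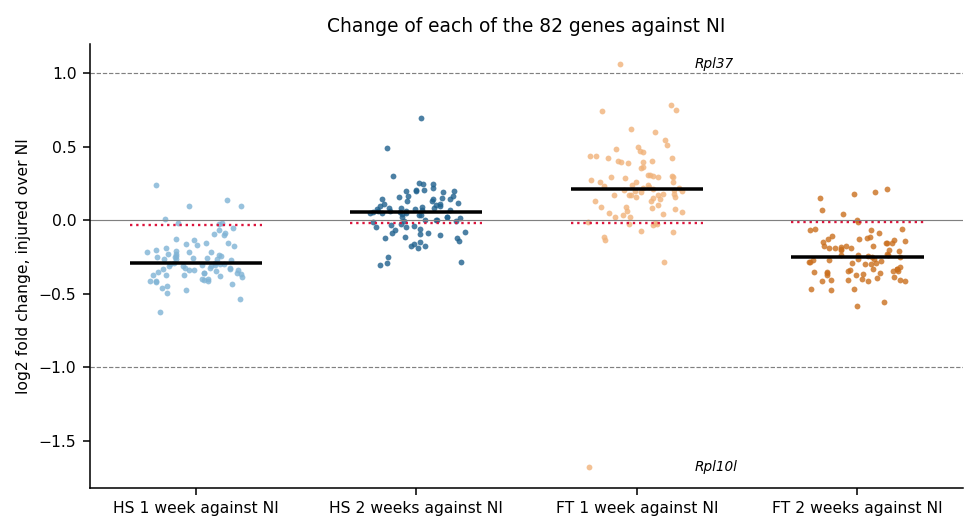
Each point is the log2 fold change of one of the 82 genes in one injured group over NI, from the limma fit. Black lines give the median of the 82 genes, red dotted lines the median of all genes tested and dashed lines a 2-fold change. The medians stand at -0.29, 0.05, 0.21 and -0.25, and Rpl37 and Rpl10l at 1 week after FT are the points beyond 2-fold.

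The comparison of the lesions with each other and of the times asks about severity and course. These comparisons share libraries with those above. One week after injury, FT against HS, no member was called by limma (0.348% of all genes), edgeR (0.226%) or DESeq2. Of the 82 members, 78 were above 0 (48.5% of all genes) and 4 below (51.5%), with a median log2 difference of 0.49. The 95% interval lay within 2-fold either way for 9 members (35.6% of all genes). The FT 1 week library lay above all 3 HS 1 week libraries for 72 members (19.1% of all genes). At an unadjusted p below 0.05 in limma 4 were higher (2.34% of all genes) and 1 lower (3.31%), and edgeR had 5 (5.56%). Rpl37 had 194 normalized counts in FT 1 week, against 70.6, 72.3 and 76.7 in HS 1 week (log2 difference 1.40 ± 0.40 (SE), limma adjusted p = 0.379). Rps29 had 679.8 normalized counts in FT 1 week, against 339, 271 and 385 in HS 1 week (1.05 ± 0.41 (SE)). Rps23 (0.98 ± 0.41 (SE)) was also among those higher, and Rpl10l was lower (-1.59 ± 0.59 (SE)). The microglia marker sum was 15229 in FT 1 week, against 5042, 1313 and 18128 in HS 1 week, and with 1 FT library the lesion and the library cannot be told apart.

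At 2 weeks, FT against HS, limma and edgeR called no member and no gene (0%), and DESeq2 called no member. Neither limma (0.866% of all genes lower, 1.39% higher) nor edgeR (2.5%) had a member at an unadjusted p below 0.05. The median log2 difference was -0.29 with 74 members below 0 (51.9% of all genes), and without the first HS 2 weeks library it was -0.04 with 43 below 0. Without the second HS 2 weeks library it was -0.54, without the first FT 2 weeks library -0.15 and without the third -0.47. Over time after HS, 2 weeks against 1 week, limma and edgeR again called no gene (0%), DESeq2 called no member, and limma and edgeR had no member at an unadjusted p below 0.05 (limma 0.805% of all genes lower and 0.818% higher, edgeR 1.81%). The median was 0.35, with 75 members above 0 (50.7% of all genes) and 16 members with both HS 2 weeks libraries above every HS 1 week library (5.76%). Without the first HS 2 weeks library the median was 0.07, and without the second it was 0.61.

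Over time after FT, 2 weeks against 1 week, limma, edgeR and DESeq2 called no member (0.384% of all genes with limma, 0.244% with edgeR). The median was -0.47 with 77 members below 0 (51.2% of all genes), or -0.32 with 72 below 0 (38.4%) when every library had the same total, and 57 members had every FT 2 weeks library below the FT 1 week library (28.6%). At an unadjusted p below 0.05 in limma 2 were lower (3.24% of all genes) and 1 higher (5.93%), and edgeR had 3 (8.29%). Rpl37 had 55.7, 68.3 and 104 normalized counts in FT 2 weeks, against 194 in FT 1 week (log2 difference -1.39 ± 0.40 (SE), limma adjusted p = 0.272), Rps29 differed by -0.95 ± 0.41 (SE), and Rpl10l by 1.72 ± 0.59 (SE). Rpl37 and Rpl10l were called here when only the FT groups entered the model (limma adjusted p = 0.00906 and 0.00258), a fit whose spread comes from the 3 FT 2 weeks libraries alone. Rpl10l was also called between FT and HS at 1 week with array quality weights in limma (-1.92, adjusted p = 0.0345).

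The P-stalk genes followed the other members. Rplp1 and Rplp2 encode its acidic proteins. Rplp2 had 172, 179 and 183 normalized counts in HS 1 week, 307 and 202 in HS 2 weeks, 268 in the FT 1 week library, 142, 151 and 254 in FT 2 weeks, and 212, 166 and 318 in NI. NI 3 and the first HS 2 weeks library were highest, the first FT 2 weeks library was lowest, and every injured group overlapped NI. The 3 genes had log2 fold changes between -0.33 and -0.05 in HS 1 week, between 0.16 and 0.30 in HS 2 weeks, between 0.26 and 0.44 in FT 1 week and between -0.34 and -0.06 in FT 2 weeks, each against NI, with none called by limma. With every library scaled to the same total, all 3 stayed below 0 in HS 1 week and FT 2 weeks, while Rplp2 fell on the other side of 0 in HS 2 weeks (-0.01) and FT 1 week (-0.03).

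The paralogs stood at varied levels beside their canonical genes. Rpl22l1 was at 61.2 normalized counts per kb and Rpl22 at 51.1. Before division by transcript length (538.5 and 2048 bases) the order was the reverse, with means of 32.9 and 104.7 normalized counts. Per kb, Rpl36al was at 129.6 and Rpl36a, which is X-linked, at 222. Rpl7l1 was at 60.6 against 525 for Rpl7, Rpl10l at 2.81 against 604 for Rpl10, and Rps27l at 110.5 against 4.42 for Rps27, whose count is among the lowest. Rps4y2, annotated in GRCm38 as Rps4l, a transcribed processed pseudogene on chromosome 6, was at 38.7 against 336 for Rps4x. Rps4y2 had 31.8, 53.9 and 26.1 normalized counts in HS 1 week, 32.2 and 25.7 in HS 2 weeks, 31.7 in the FT 1 week library, 40.8, 38.2 and 25.9 in FT 2 weeks, and 48.1, 21.2 and 26.2 in NI. It was highest in the second HS 1 week library, a library in which the members as a whole were low. In contrast, Rpl36al had 83.9, 98.8 and 74.0 normalized counts in HS 1 week, 99.3 and 89.6 in HS 2 weeks, 131 in the FT 1 week library, 70.9, 96.8 and 112 in FT 2 weeks, and 102, 87.9 and 132 in NI, and its order of libraries was close to that of the core genes. Rps27l, in humans a target of p53, had 47.3, 76.3 and 45.1 normalized counts in HS 1 week, 50.5 and 47.8 in HS 2 weeks, 55.3 in the FT 1 week library, 36.2, 56.3 and 62.2 in FT 2 weeks, and 57.0, 53.3 and 74.0 in NI, with the highest value in the second HS 1 week library. Rps19bp1, counted by its name alone, had 7.52, 10.2 and 7.89 normalized counts in HS 1 week, 8.33 and 9.38 in HS 2 weeks, 9.13 in the FT 1 week library, 7.81, 5.24 and 5.86 in FT 2 weeks, and 4.40, 12.7 and 10.4 in NI, and the NI libraries alone covered its whole range. Against NI its log2 fold change was 0.01 ± 0.34 (SE) in HS 1 week, 0.06 ± 0.38 (SE) in HS 2 weeks, 0.10 ± 0.48 (SE) in FT 1 week and -0.39 ± 0.34 (SE) in FT 2 weeks.

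Ribosomal protein genes left out by the naming rule were read beside the members. They included Rpsa, whose protein is a 40S component also known as the laminin receptor, Fau, which encodes a ribosomal protein fused to a ubiquitin-like protein, and Gnb2l1 (Rack1), the signaling scaffold on the 40S head. Fau had 284, 302 and 380.3 normalized counts in HS 1 week, 635 and 361 in HS 2 weeks, 587 in the FT 1 week library, 266, 274 and 411 in FT 2 weeks, and 345, 333 and 455 in NI. Gnb2l1 had 216, 221 and 306 normalized counts in HS 1 week, 443 and 241 in HS 2 weeks, 368 in the FT 1 week library, 209.7, 191 and 291 in FT 2 weeks, and 236, 235 and 402 in NI. In both genes the first HS 2 weeks library, FT 1 week and NI 3 were highest and the first or the second FT 2 weeks library was lowest, and the groups overlapped in HS 2 weeks. These 3 genes were below 0 against NI in HS 1 week (median -0.20) and FT 2 weeks (median -0.27), and above 0 in HS 2 weeks (median 0.22) and FT 1 week (median 0.39), with none called by limma. With the same total in every library, 1 of the 3 was below 0 in HS 2 weeks, and the other directions stayed.

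Other parts of the translation machinery were read beside the members. Of 15 translation factor and other genes with known TOP mRNAs, limma called none against NI in any group, and their median log2 fold changes were -0.06 in HS 1 week, 0.15 in HS 2 weeks, 0.45 in FT 1 week and 0.06 in FT 2 weeks. Eef2, the elongation factor that moves the ribosome along the mRNA, had 1001, 478 and 1131 normalized counts in HS 1 week, 948 and 868 in HS 2 weeks, 1108 in the FT 1 week library, 962, 874 and 572 in FT 2 weeks, and 647, 439 and 617 in NI. It was above the mean of NI in all 4 injured groups, with log2 fold changes of 0.54 ± 0.34 (SE), 0.70 ± 0.38 (SE), 0.98 ± 0.49 (SE) and 0.48 ± 0.34 (SE) in HS 1 week, HS 2 weeks, FT 1 week and FT 2 weeks, and these stayed above 0 under each scaling of the libraries. The lowest limma adjusted p of Eef2 was 0.486. Of 11 regulators of TOP mRNAs, limma called none against NI. Of these, 3 lay wholly above NI in HS 1 week (7.31% of all genes) and 0 wholly below (5.02%). In FT 2 weeks, 1 lay above (6.92%) and 1 below (7.99%). In HS 2 weeks, 5 had both libraries above every NI library (12.9% of all genes) and 1 had both below (11.6%). Tsc2, a brake on mTOR, had 64.8 and 67.2 normalized counts in HS 2 weeks, against 31.0, 40.5 and 46.9 in NI, without overlap (log2 fold change 0.75 ± 0.26 (SE), limma adjusted p = 0.576). Among 25 ribosome biogenesis genes none was called, and the medians lay between -0.05 and 0.11. In FT 1 week, a group of 1 library, 11 of these 25 lay wholly above NI and 2 wholly below. Of the 15 translation factor and other TOP genes 8 lay above and 0 below there, and of the 11 regulators 3 and 1. Of all genes, 27.2% lay above and 30.1% below. The 10 S6 kinase genes, left out by the rule, had medians between -0.16 and 0.16 and none was called.

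The 76 mitochondrial ribosomal protein genes and 45 short genes of oxidative phosphorylation followed the pattern of libraries only in part, with the sign of the members in 7 and 8 of the 12 libraries. In NI 3, where the cytosolic genes deviated from their mean by 0.51 on the log2 scale, the mitochondrial ones deviated by 0.09 and the oxidative phosphorylation genes by 0.09. In the second HS 1 week library the cytosolic genes deviated from their mean by -0.15 on the log2 scale and the mitochondrial ones by 0.37. In FT 1 week the cytosolic genes deviated by 0.32 and the mitochondrial ones by -0.04. In the first HS 2 weeks library the cytosolic genes deviated by 0.40 and the oxidative phosphorylation genes by -0.21. The 43 abundant genes with short transcripts outside the 82, whatever their role, had the sign of the members in 7 of the 12 libraries. They too were highest in NI 3 (0.38) and lowest in the first FT 2 weeks library (-0.45), but deviated by -0.06 in the first HS 2 weeks library and by 0.27 in the second HS 1 week library. Against NI the medians of the mitochondrial ribosomal genes were -0.08, -0.19, -0.13 and -0.06 in HS 1 week, HS 2 weeks, FT 1 week and FT 2 weeks, and those of the oxidative phosphorylation genes were -0.17, -0.24, -0.12 and -0.10. Limma called no gene of either list.

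**Figure D5:**
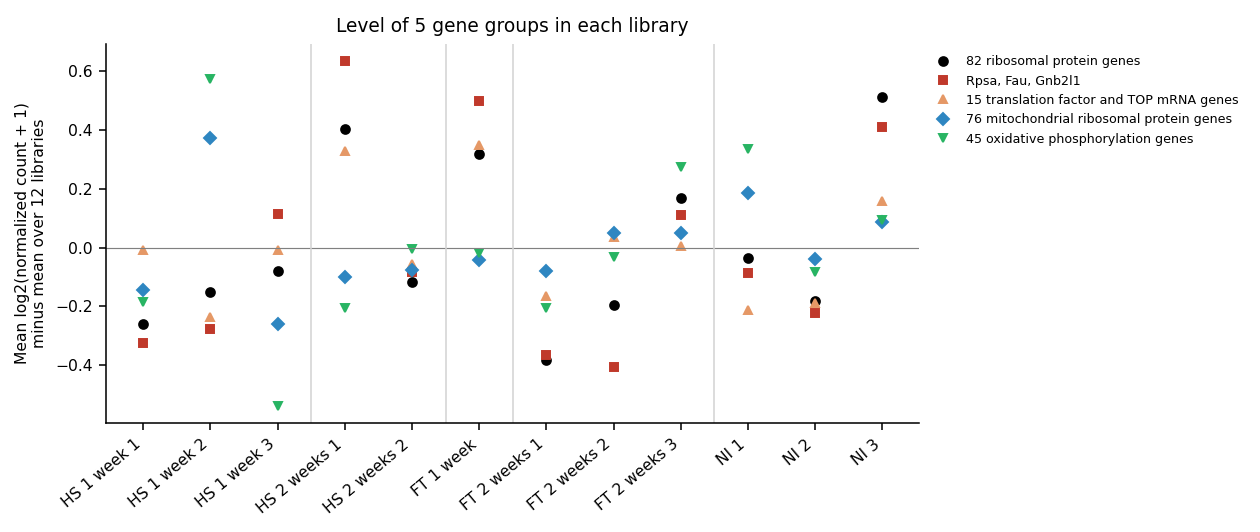
For each library, points give the mean log2(normalized count + 1) of a gene group minus its mean over the 12 libraries. The 3 ribosomal protein genes outside the rule (Rpsa, Fau and Gnb2l1) have the sign of the 82 genes in every library but HS 1 week 3, whereas the mitochondrial ribosomal and oxidative phosphorylation genes peak in HS 1 week 2.

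The genes outside the set most like it were searched among those averaging 10 normalized counts or more, by Pearson correlation with the mean log2 value of the members over the 12 libraries. The first was Eef1b2, a subunit of the exchange factor of elongation factor 1 (r = 0.98), and others were Gnb2l1 (0.93), Pfdn5 (0.92), Rpsa (0.92), Fau (0.90), Gng10 (0.87), Myl12b (0.86), Pabpc1 (0.86) and Tuba1b (0.86). These are descriptions over libraries that share their scaling and differ in cell makeup. Gnb2l1, Rpsa and Fau are ribosomal protein genes that the naming rule leaves out, and Eef1b2 and Pabpc1, the poly(A)-binding protein gene, are on the list of TOP mRNAs. Eef1b2 had 146, 153 and 159 normalized counts in HS 1 week, 217 and 154 in HS 2 weeks, 216 in the FT 1 week library, 120.4, 149 and 179.9 in FT 2 weeks, and 146, 144 and 236 in NI. As in the members, NI 3, the first HS 2 weeks library and FT 1 week were highest, and the first FT 2 weeks library was lowest.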

How the data were processed

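RNA-Seq of the polyadenylated fraction was carried out by the authors on eGFP+ cells (SMARTer and Nextera libraries). Per the submitters' processing notes, reads were mapped with TopHat2 2.0.9 to mm10 (GRCm38), counted with HTSeq 0.5.4p3 and normalized with edgeR 3.3.6, and genes with few counts were removed. How reads with several matches were treated is not given in the sources used here. The deposited signal (normalized counts of 16389 genes) is, in each library, the authors' read count over a single scaling factor. Dividing each column by its smallest value above 0 gave whole reads for 100% of values within 1e-06, and 8270643 to 15562378 reads per library. The reads carry no strand, so overlapping genes cannot be told apart.

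Members were taken by symbol, and samples were grouped by their labels. Log2(value + 1) was tested with limma 3.58.1 (limma-trend, R 4.3.3) in 1 model of 5 groups over the 16388 genes that averaged 0.5 or more in some group (7 residual and 3.687 prior degrees of freedom), with Benjamini-Hochberg adjustment over all of them. The quasi-likelihood test of edgeR 4.0.16 and DESeq2 1.42.0 on the recovered reads were alternatives. The fits were tested on simulated data. Genes named are called members, the 3 largest changes each way per comparison with NI, the highest and lowest levels per kb, the largest within-group SD, paralogs beside their canonical genes, list genes with the largest changes and the 10 genes most like the members. Further names are marked where they stand. Some genes this rule takes in are not reported here. The members and lists were chosen with earlier results of these data known. The limits of 0.05 and 2-fold are those of the study's methods.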

Additional observations from a re-analysis of the deposited data

How the results depend on the processing

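Under 13 alternatives of scaling, filter, pseudocount, model and tool and with each of 11 libraries left out, the number of members called stayed at 0 in 187 of 189 values. The exceptions were 1 member between FT and HS at 1 week with array quality weights (Rpl10l, -1.92) and 2 members between FT 2 weeks and FT 1 week with only these groups in the model (Rpl10l, 1.72, and Rpl37, -1.39). The 95 medians of the members moved by less than the between-replicate SD of 0.29. With libraries left out they ranged from -0.44 to -0.07 in HS 1 week, from -0.23 to 0.33 in HS 2 weeks, from 0.08 to 0.42 in FT 1 week and from -0.43 to -0.03 in FT 2 weeks, each against NI.

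Of 749 values of single genes, 18 changed sign, all of genes not called. Rpl13 in HS 1 week was -0.11 with the same total, -0.12 with the same total without the members, -0.27 with array quality weights, -0.12 with edgeR and -0.11 with DESeq2. Rpl7l1 in HS 1 week was -0.072 with the same total and -0.084 with the same total without the members, and Rpl10l in HS 2 weeks was 0.0086 with array quality weights. Leaving out each library in turn gave -0.51 (without NI 1) to 0.62 for Rpl13 in HS 1 week and -0.054 (without HS 1 week 2) to 0.57 for Rps4y2 in HS 1 week, which was also -0.00033 without NI 2. In HS 2 weeks it gave -0.65 to 0.20 (without NI 1) for Rpl10l, and, lowest without HS 2 weeks 1, -0.071 to 0.67 for Rplp0 and -0.030 to 1.01 for Rps2. It gave -0.23 to 0.0059 (without NI 3) for Rps27l in FT 1 week and, lowest without NI 2, -0.012 to 0.33 for Rpl3 and -0.049 to 0.52 for Rps4y2 in FT 2 weeks. Rpl13 was -0.15 without HS 1 week 3. The causes were not tested.

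Libraries of different groups were correlated after their group mean was taken out. The correlation of same-numbered libraries ran from -0.48 to 0.72 (NI 3 with HS 1 week 3), and that of differently numbered ones from -0.72 to 0.67. The 2 libraries of HS 2 weeks gave mirrored values, such as -0.48 and 0.48 with NI 1. Taking out the mean of a group of 2 libraries fixes this mirror in advance. With so few libraries per group, these values cannot decide whether the replicate numbers pair the libraries. With the replicate number as a block, without the FT 1 week library, 0 members were called, and the median in HS 2 weeks against NI was 0.20. Genes with few reads limit what could be seen, and the lone FT 1 week library was assumed to vary like the others.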
